A study of Mus musculus with 12 samples.

Results

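The 10 genes described here encode tissue inhibitors of metalloproteinases (Timp1, Timp2, Timp3 and Timp4), the matrix metalloproteinases Mmp2, Mmp3 and Mmp14, the secreted proteases Adamts1 and Adamts5, and the membrane-anchored protease Adam19. They were taken by symbol from the array annotation, which gave them 23 of the 22690 probe sets, and all 10 were among the 8101 genes tested. Of the 23 probe sets, 20 passed the filter on low signals, and the brightest probe set of a gene, by its mean over all arrays, stood for that gene.

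Metalloproteinases of the Mmp, Adamts and Adam families use a zinc ion to cut proteins of the extracellular matrix and of the cell surface, and Timp proteins block them by binding at the active site. Mmp2 is released as an inactive gelatinase that Mmp14, a membrane protease, activates with Timp2 as a bridge. Timp3 stays bound to the matrix and also inhibits several Adam and Adamts enzymes, and in the heart this balance takes part in the clearing and rebuilding of matrix after infarction.

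Messenger RNA was measured in hearts of C57Bl/6 mice, an inbred strain, on 12 single-colour Affymetrix arrays, 3 in each of 4 groups. Wake MI hearts had myocardial infarction (MI), made by ligating the left anterior descending coronary artery, between ZT13 and ZT15 (zeitgeber time, hours from lights on), and wake sham hearts had sham surgery in the same window. Sleep MI and sleep sham hearts had the same operations between ZT1 and ZT3. Collection followed 8 hours later, at ZT23 for wake hearts and ZT11 for sleep hearts, so that time of surgery and time of collection cannot be told apart. Labels call the MI tissue infarcted myocardium and name no region for sham tissue. Values are MAS5 signals as deposited, a linear intensity whose size cannot be compared between genes.

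Median signals of the 12 arrays lay between 32.7 and 34.7, and pairs of arrays within a group correlated at r of 0.974 to 0.988 across probe sets. All 8 cardiomyocyte markers were measured, with summed signals of 50120 to 68540 on every array. One array stood apart: the summed signal of 5 atrial markers was 14700 in wake sham replicate 3, against 1000 to 4720 on the other 11 arrays. In wake MI against wake sham hearts 3 of the 4 atrial markers tested were lower. Members' results that rest on the wake sham group are therefore also given without wake sham replicate 3. Leaving it out did not remove the atrial difference. The wake calls of Myl7 and Myl4 held, and that of Sln did not (log2 change -2.23, adjusted p = 0.0763). The other wake sham arrays had atrial sums of 1730 and 2150, against 1000 to 1440 in wake MI hearts. The signal ratio of the 3′ to the 5′ end of the beta-actin control, a measure of RNA integrity, was 2.6 ± 0.62 in wake MI and 1.79 ± 0.02 in wake sham hearts. At the sleep time it was 2.4 ± 0.45 with MI and 2.18 ± 0.28 with sham surgery (SD over 3 arrays). With this ratio as covariate the wake calls of Myl7, Myl4 and Sln did not hold (adjusted p = 0.167, 0.216 and 0.302). Those of Myl4 and Sln were also lost with robust variances (0.0669 and 0.0885).

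Promoter sequences are shown for 4 members that carry the results below: Adamts1 and Timp1 for the change with MI, and Timp3 and Adam19 for the difference between wake and sleep. Each is the 250 bases before an annotated transcription start, 5′ to 3′ on the gene's strand, from RefSeq on GRCm38.p6. Capitals mark the letters TGANTCA (the AP-1 site bound by Fos and Jun proteins), CACGTG (the E-box bound by clock proteins) or TATAAA (the TATA box), searched on both strands. These motifs occur in 6.75%, 6.02% and 12.4% of the windows of the same length before 32851 annotated starts.
Adamts1, chr16:85803114-85803363, minus strand: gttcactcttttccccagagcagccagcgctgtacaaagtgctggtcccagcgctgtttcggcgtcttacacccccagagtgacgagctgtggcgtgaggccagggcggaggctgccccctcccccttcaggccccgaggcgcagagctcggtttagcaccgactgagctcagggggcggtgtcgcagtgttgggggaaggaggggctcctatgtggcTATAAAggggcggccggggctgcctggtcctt
Timp1, chrX:20869916-20870165, plus strand: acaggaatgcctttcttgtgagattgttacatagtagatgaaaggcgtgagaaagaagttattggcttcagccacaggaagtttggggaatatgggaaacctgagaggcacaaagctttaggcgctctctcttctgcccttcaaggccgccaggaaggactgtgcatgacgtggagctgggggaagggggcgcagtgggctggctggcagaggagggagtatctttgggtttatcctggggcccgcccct
Timp3, chr10:86300162-86300411, plus strand: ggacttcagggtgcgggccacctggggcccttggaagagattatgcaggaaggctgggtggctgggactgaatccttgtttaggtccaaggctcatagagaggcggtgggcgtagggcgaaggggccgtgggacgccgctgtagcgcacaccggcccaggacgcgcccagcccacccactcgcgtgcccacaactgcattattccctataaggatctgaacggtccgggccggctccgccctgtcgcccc
Adam19, start 1 of 3, chr11:46054252-46054501, plus strand: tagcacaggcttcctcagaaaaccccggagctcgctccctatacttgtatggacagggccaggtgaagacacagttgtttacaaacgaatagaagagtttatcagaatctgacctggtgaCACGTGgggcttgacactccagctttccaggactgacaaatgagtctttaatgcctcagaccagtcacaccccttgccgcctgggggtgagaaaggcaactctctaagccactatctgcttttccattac
Adam19, start 2 of 3, chr11:46055734-46055983, plus strand: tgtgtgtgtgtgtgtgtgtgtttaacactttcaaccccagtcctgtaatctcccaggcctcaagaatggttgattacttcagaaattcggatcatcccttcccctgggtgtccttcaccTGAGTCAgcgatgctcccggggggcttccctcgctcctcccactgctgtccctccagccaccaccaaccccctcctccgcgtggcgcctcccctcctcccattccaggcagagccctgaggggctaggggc

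The Adamts1 window held a TATA box 32 to 27 bases before the start. Adam19 had an E-box 130 to 125 bases before its first annotated start and an AP-1 site 131 to 125 bases before its second. Among 8 members with an annotated promoter and 10 windows, an AP-1 site was also found 46 to 40 bases and a TATA box 7 to 2 bases before the start of Mmp3. None of these letters stood in the windows of Timp1, Timp2, Timp3, Timp4 and Mmp14. A match is a description of letters and not a measured binding site. In the same annotation Timp1, Timp3 and Timp4 overlap the synapsin genes Syn1, Syn3 and Syn2, and Adamts1 and Adamts5 are neighbours on chromosome 16.

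After infarction Adamts1 had the largest log2 change of the 10 genes, and Adamts5 was the member that fell. Across both times, 4 of the 10 genes were higher in MI than in sham hearts (Adamts1, Mmp14, Timp1 and Timp3), 1 was lower (Adamts5) and 5 did not pass the test. A gene was called at a Benjamini-Hochberg adjusted p below 0.05 in limma, on log2(signal + 16), over all genes tested. In this comparison 22.1% of the 8101 genes were called, 8.49% as higher and 13.6% as lower, and the 5 members called are read against that high background. By role, 2 of 4 inhibitors rose and 0 fell, and of 6 proteases 2 rose and 1 fell. The median log2 change was 0.39 for the inhibitors and -0.01 for the proteases, against -0.06 for all genes. In whole tissue, a change in the number of cells of a type and a change in RNA per cell cannot be told apart.

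**Figure D1:**
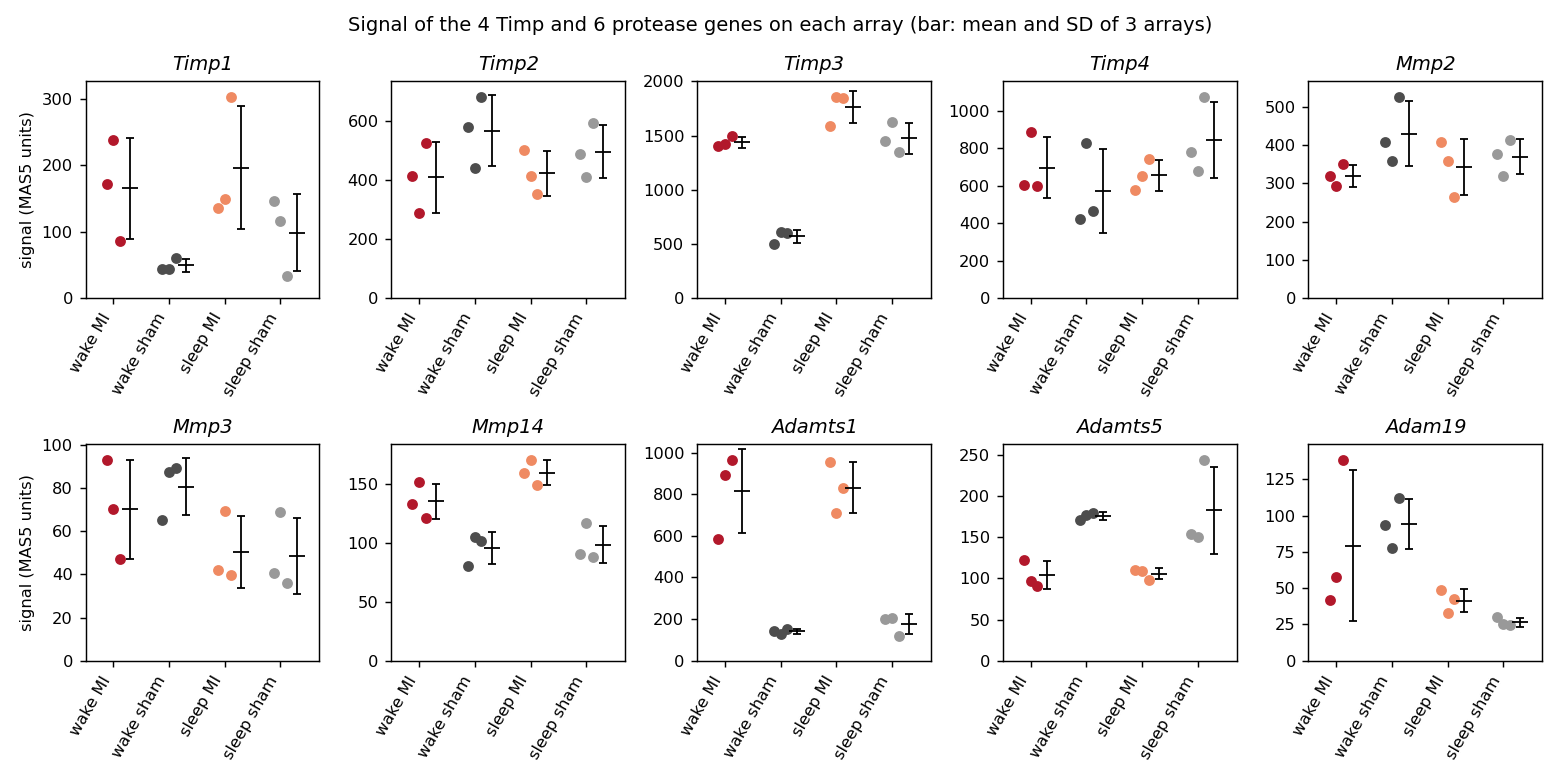
MAS5 signal (linear axis from 0) of each of the 10 genes on 3 arrays per group, with mean and SD as bars, in wake MI, wake sham, sleep MI and sleep sham hearts. Adamts1 lay at 585 to 965 on every MI array and at 121 to 206 on every sham array, and Timp3 was at 501 to 610 in wake sham hearts alone.

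Adamts1, a secreted protease that cuts the proteoglycans versican and aggrecan, had signals of 585, 895 and 965 in wake MI hearts, against 142, 129 and 154 in wake sham hearts. After surgery in the sleep period, MI hearts had 954, 710 and 828, against 203, 206 and 121 in sham hearts. No MI array overlapped a sham array at either time. The change was 2.37 in wake hearts (SE 0.2, adjusted p = 1.86e-05) and 2.16 in sleep hearts (SE 0.2, adjusted p = 4.16e-05) on the log2 scale, which is 5.16-fold and 4.48-fold. Over both times it was 4.81-fold, and Adamts1 ranked 5 by p and 17 by size of change among the genes tested. It was called in every alternative tried for the 3 MI comparisons, at log2 changes of 1.91 to 2.59, and its wake change was 2.42 without wake sham replicate 3. Its MI change differed between wake and sleep by 0.21 (SE 0.29, adjusted p = 0.847).

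Adamts5, a related protease and the main aggrecan-cutting enzyme of mouse cartilage, changed in the opposite direction. Its signals were 123, 97.3 and 91 in wake MI hearts, against 170, 177 and 180 in wake sham hearts. At the sleep time they were 110, 109 and 97.5 in MI hearts, against 154, 150 and 244 in sham hearts. On this probe set, the brightest of Adamts5, every MI array lay below every sham array. The log2 change was -0.69 in wake hearts (SE 0.16, adjusted p = 0.00978) and -0.68 in sleep hearts (SE 0.16, adjusted p = 0.037), and over both times the signal in MI hearts was 0.623 of that in sham hearts (adjusted p = 0.00106). A second, dimmer probe set gave -0.35 (SE 0.2, adjusted p = 0.239) in wake and -0.29 (SE 0.2, adjusted p = 0.521) in sleep hearts. With the beta-actin ratio as covariate neither the wake call (-0.43, adjusted p = 0.262) nor the sleep call (-0.61, adjusted p = 0.056) held. The wake change was -0.67 without wake sham replicate 3 (adjusted p = 0.0362). In sleep hearts the call was also lost without a level filter (adjusted p = 0.0641), with quantile normalization (0.0567), with probe sets averaged (0.0913) and with only the compared groups (0.0686). The sleep call did not hold without sleep MI replicate 1, 2 or 3 (adjusted p = 0.0989, 0.0865 and 0.117), sleep sham replicate 1 or 3 (0.0545 and 0.122), or wake sham replicate 1 or 3 (0.0537 and 0.0521). Over both times the call held in every alternative tried, each read on the brightest probe set or on the mean of both. The second probe set gave -0.32 over both times (SE 0.14, adjusted p = 0.118) and was not called.

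Over the 12 arrays the log2 signals of Adamts1 and Adamts5 had a correlation of -0.95, and of -0.86 after removing group means, as a description with no test. The genes nearest to Adamts1 by the same measure were Gadd45g (r = 0.994), a DNA damage and stress gene, Fos (r = 0.992), an immediate early transcription factor of the AP-1 family, and Akap12 (r = 0.99), a scaffold of protein kinase A. With group means removed these were 0.931, 0.898 and 0.879. For Adamts5 they were Mpv17 (r = 0.959), Il10rb (r = 0.955), a chain of the interleukin-10 receptor, and Dcps (r = 0.952). All such points share the 12 arrays and the 4 groups.

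Mmp14, the membrane protease that activates Mmp2, rose at both times. Its signals were 133, 151 and 122 in wake MI hearts, against 80.4, 105 and 102 in wake sham hearts. Sleep MI hearts had 159, 171 and 149, against 90.4, 117 and 88.4 in sleep sham hearts. On this probe set, the brightest of Mmp14, MI and sham arrays did not overlap. The log2 change was 0.44 in wake (SE 0.13, adjusted p = 0.0329) and 0.62 in sleep hearts (SE 0.13, adjusted p = 0.0231), and 0.53 over both times (SE 0.09, adjusted p = 0.0016). Of these calls only the one over both times held in every alternative tried. Each alternative was read on the brightest probe set or on the mean of both.

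The wake call for Mmp14 did not hold without wake MI replicate 1 or 2 (adjusted p = 0.0591 and 0.117) or wake sham replicate 1 or 3 (0.139 and 0.0609). It was also lost with the beta-actin ratio as covariate (0.61, adjusted p = 0.0775), without a level filter (0.0523) and with only the groups compared (0.0643). The sleep call did not hold without sleep MI replicate 1, 2 or 3 (0.0902, 0.0856 and 0.0508) or sleep sham replicate 1 or 3 (0.0955 and 0.104). A second probe set of Mmp14 near the low end of the scale, with a mean signal of 21.8, gave -0.42 (SE 0.16, adjusted p = 0.0936) in wake hearts and 0.4 (SE 0.16, adjusted p = 0.253) in sleep hearts. Over both times the second probe set gave -0.01 (SE 0.12, adjusted p = 0.96). With the mean of both probe sets the wake change was 0.01 (adjusted p = 0.965). The tested genes most like Mmp14 over the 12 arrays were Asns (r = 0.946), which makes asparagine, Hbegf (r = 0.934), a growth factor released from the membrane by metalloproteinases, and the chemokine Cxcl2 (r = 0.931).

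Mmp2, the gelatinase, did not pass the test in any of the 6 comparisons as designed. It was 320, 292 and 350 in wake MI hearts, against 408, 358 and 526 in wake sham hearts. On this probe set, the brightest of Mmp2, these groups did not overlap. In sleep MI hearts it was 408, 360 and 264, against 378, 321 and 414 in sleep sham hearts, and the groups overlapped. Log2 changes were -0.39 (SE 0.17, adjusted p = 0.112) in wake and -0.12 (SE 0.17, adjusted p = 0.774) in sleep hearts, and -0.25 (adjusted p = 0.382) in wake hearts without wake sham replicate 3. With array weights Mmp2 was called in wake hearts (-0.49, SE 0.15, adjusted p = 0.0299). On a second Mmp2 probe set, with a mean signal of 343, the wake groups overlapped. It gave -0.43 (SE 0.18, adjusted p = 0.119) in wake and -0.21 (SE 0.18, adjusted p = 0.634) in sleep hearts.

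Mmp3, or stromelysin-1, which cuts many matrix proteins and activates other proenzymes, had signals of 93, 70.2 and 47 in wake MI hearts, against 65.2, 87.5 and 89.1 in wake sham hearts. Sleep MI hearts had 41.9, 69.4 and 39.6, against 40.5, 68.6 and 36 in sleep sham hearts. The groups overlapped throughout, and the log2 changes with MI were -0.19 (SE 0.23, adjusted p = 0.602) in wake and 0.05 (SE 0.23, adjusted p = 0.945) in sleep hearts. The wake change was -0.13 without wake sham replicate 3 (adjusted p = 0.797).

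Timp1, the inhibitor best known as induced by inflammation and injury, had signals of 171, 238 and 86.4 in wake MI hearts, against 43.7, 43.3 and 60.5 in wake sham hearts. Signals in sleep MI hearts were 136, 149 and 302, against 145, 115 and 33.8 in sleep sham hearts. The wake groups did not overlap, while in sleep hearts 1 sham array reached the range of the MI arrays. The log2 change was 1.39 in wake hearts (SE 0.41, adjusted p = 0.0303), 0.97 in sleep hearts (SE 0.41, adjusted p = 0.24) and 1.18 over both times (SE 0.29, adjusted p = 0.0109). The wake and sleep changes differed by 0.42 (SE 0.58, adjusted p = 0.845).

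The wake call for Timp1 did not hold without wake MI replicate 1 or 2 (adjusted p = 0.0726 and 0.114) or without wake sham replicate 1, 2 or 3 (0.0903, 0.0754 and 0.0559). It was also lost without a level filter (0.0522) and with robust variances (0.0634). With the beta-actin ratio as covariate neither the wake call (1.21, adjusted p = 0.274) nor the call over both times (1.07, adjusted p = 0.116) held. Neutrophil markers moved with MI as well. All 7 of the 7 tested, of 10 on the array, rose over both times, against 8.49% of all genes. By time, 6 of these 7 were called as higher in wake hearts, against 7.79% of all genes, and 2 in sleep hearts, against 1.68%. The sleep calls, of Il1r2 and Hdc, held in 13 and 12 of 25 alternatives. With the beta-actin ratio as covariate the wake calls of Hdc, S100a8 and Lcn2 did not hold (adjusted p = 0.091, 0.112 and 0.0709). The summed signal of all 10 was 1328 to 3248 in wake MI hearts, against 275 to 786.1 in wake sham hearts. It was 1722 to 3144 in sleep MI hearts, against 509.2 to 2035 in sleep sham hearts. The neutrophil genes Mpo, Elane and Cxcr2 lay below the filter. The part of these cells in the change of Timp1 was not tested. Nearest to Timp1 over the 12 arrays were Hp (r = 0.956), the haemoglobin-binding acute-phase protein haptoglobin, Fbl (r = 0.955), a nucleolar methyltransferase, and B4galt1 (r = 0.945), a galactosyltransferase.

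Timp3 set wake sham hearts apart from the 3 other groups. Its signals were 1401, 1422 and 1497 in wake MI hearts, against 501, 610 and 598 in wake sham hearts. In sleep MI hearts they were 1593, 1856 and 1847, against 1452, 1628 and 1345 in sleep sham hearts. On this probe set, the brightest of Timp3, wake MI and wake sham arrays did not overlap, and sleep MI and sleep sham arrays did. On the probe sets with mean signals of 1161 and 87.7, MI and sham arrays did not overlap at either time. The log2 change of Timp3 with MI was 1.32 in wake hearts (SE 0.11, adjusted p = 1.86e-05), where it ranked 2 by p, and 0.26 in sleep hearts (SE 0.11, adjusted p = 0.238). It was 0.79 over both times (SE 0.08, adjusted p = 1.67e-05).

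The difference of the MI change of Timp3 between wake and sleep was 1.06 (SE 0.15), with the smallest p of the 8101 genes, 6.21e-06, and an adjusted p of 0.0503, so that it was not called. In 25 alternatives this difference was 0.85 to 1.12 and was called in 8. Leaving out wake sham replicate 2 or sleep sham replicate 3 gave calls (adjusted p = 0.0112 and 0.00655). Leaving out any other array gave none (adjusted p = 0.0779 to 0.254). Without wake sham replicate 3 the difference was 1.1 (SE 0.17, adjusted p = 0.135). The difference was not called with probe sets averaged (0.85, adjusted p = 0.16) or with the beta-actin ratio as covariate (1, adjusted p = 0.375). All 4 probe sets of Timp3 were called in wake hearts, at log2 changes of 1.32, 1.38, 1.13 and 0.84. None of them was called in sleep hearts, at 0.26, 0.26, 0.35 and 0.41. The difference of the MI change was not called for any of them. It was 1.06, 1.13, 0.78 and 0.43, with adjusted p of 0.0503, 0.0503, 0.292 and 0.48. Pairs of these probe sets correlated at 0.95 to 0.99 over the 12 arrays. The wake change of Timp3 was 1.35 without wake sham replicate 3 (adjusted p = 0.000158) and 1.24 with the beta-actin ratio as covariate (adjusted p = 0.00476).

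**Figure D2:**
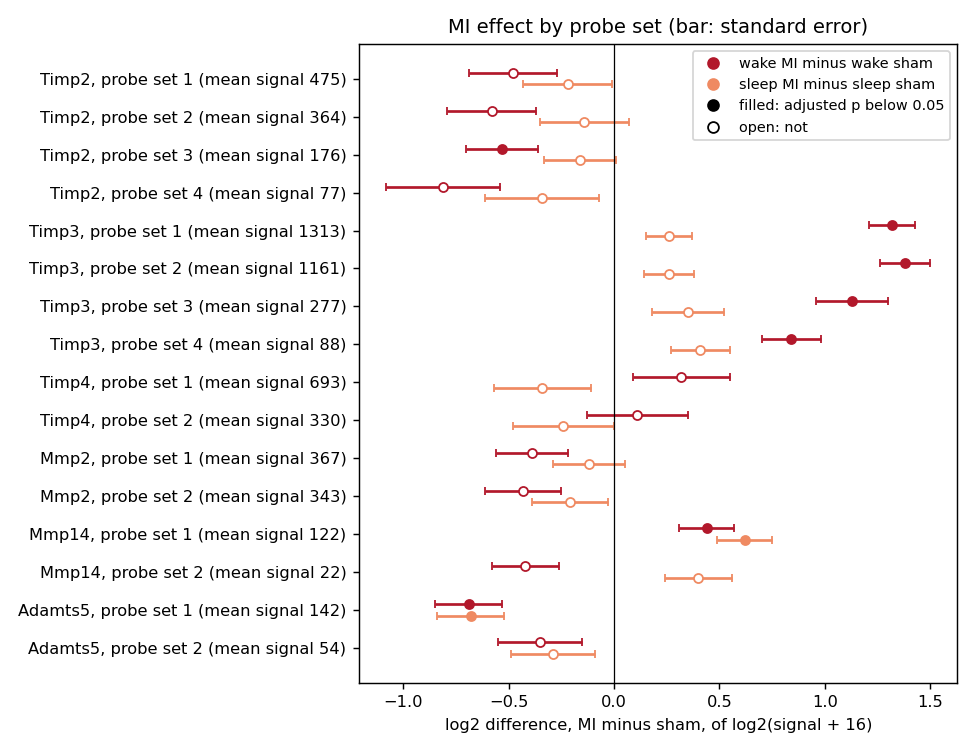
Log2 difference of MI minus sham hearts (axis, log2(signal + 16)) for each probe set of the 6 members with several above the filter, in wake and in sleep hearts, with the standard error as bars and filled points for an adjusted p below 0.05. All 4 Timp3 probe sets lay between 0.84 and 1.38 in wake hearts, while the pair for Mmp14 had opposite signs there, 0.44 and -0.42.

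Timp2, which inhibits Mmp2 and also takes part in its activation, had signals of 415, 288 and 528 in wake MI hearts, against 582, 442 and 683 in wake sham hearts. In sleep MI hearts it was 503, 414 and 353, against 489, 411 and 593 in sleep sham hearts. On this probe set, the brightest of Timp2, the groups overlapped at both times. The log2 change was -0.48 in wake (SE 0.21, adjusted p = 0.132) and -0.22 in sleep hearts (SE 0.21, adjusted p = 0.637). Without wake sham replicate 3 the wake change was -0.34 (adjusted p = 0.376). Of the other 3 probe sets above the filter, 1 was called in wake hearts (-0.53, SE 0.17, adjusted p = 0.0449), and the others gave -0.58 and -0.81 (adjusted p = 0.0675 and 0.055). Wake groups did not overlap on the probe sets at -0.53 and -0.81. The probe set at -0.81 was called over both times (-0.57, SE 0.19, adjusted p = 0.0489).

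Timp2 was called without wake MI replicate 3, both in wake hearts (-0.67, SE 0.21, adjusted p = 0.0466) and over both times (-0.45, adjusted p = 0.038). It was also called with array weights, at -0.75 in wake hearts (adjusted p = 0.0106) and -0.46 over both times (adjusted p = 0.0207). Timp2 and Mmp2 had a correlation of 0.9 over the 12 arrays and of 0.85 with group means removed, again without a test. Fibroblast markers also differed between the groups: of 10 tested, 3 were lower in MI than in sham hearts over both times and 0 were higher. These calls held in 20 of 25 alternatives for Tcf21, 13 of 25 for Col1a1 and 10 of 25 for Dcn. The summed signal of all 10 fibroblast markers was 6366 to 8294 in wake MI hearts, against 9150 to 13770 in wake sham hearts. It was 8532 to 11190 in sleep MI hearts, against 8677 to 12160 in sleep sham hearts. Among 7 monocyte and macrophage markers tested, Cd14 rose in wake hearts (1.16, adjusted p = 0.00763) while Lyz2 (log2 change -1.03, adjusted p = 0.000569) and Adgre1 (-0.84, adjusted p = 0.00573) fell. The summed signal of all 9 such markers on the array was 2361 to 2777 in wake MI hearts, against 3040 to 4916 in wake sham hearts. In sleep hearts 0 of these 7 were called, at sums of 2930 to 3221 in MI and 2792 to 3143 in sham hearts. The part of either cell type in the values of the members was not tested.

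Timp4, the inhibitor with its highest known expression in the heart, had signals of 606, 886 and 599 in wake MI hearts, against 423, 828 and 463 in wake sham hearts. Signals in sleep MI hearts were 576, 651 and 742, against 781, 680 and 1075 in sleep sham hearts. The groups overlapped. Log2 changes were 0.32 (SE 0.23, adjusted p = 0.368) in wake and -0.34 (SE 0.23, adjusted p = 0.504) in sleep hearts, and their difference was 0.66 (SE 0.33, adjusted p = 0.5). The wake change was 0.2 without wake sham replicate 3 (adjusted p = 0.661), and with array weights it was called (0.6, SE 0.21, adjusted p = 0.0487). A second, dimmer Timp4 probe set gave 0.11 (SE 0.24, adjusted p = 0.796) in wake and -0.24 (SE 0.24, adjusted p = 0.687) in sleep hearts. The difference on that probe set was 0.35 (SE 0.34, adjusted p = 0.758).

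Adam19, also called meltrin beta, a membrane protease needed for the endocardial cushions of the developing heart, had signals of 42.1, 57.4 and 139 in wake MI hearts, against 93.4, 78 and 112 in wake sham hearts. In sleep MI hearts it was 49, 33.2 and 42.2, against 30.2, 25.5 and 24.4 in sleep sham hearts. Wake MI arrays spread across the whole wake sham range, whereas the sleep groups did not overlap. The log2 change was -0.33 in wake (SE 0.27, adjusted p = 0.415) and 0.42 in sleep hearts (SE 0.27, adjusted p = 0.46). The wake change was -0.75 without wake MI replicate 3 (SE 0.17, adjusted p = 0.0133) and -0.22 without wake sham replicate 3 (SE 0.3, adjusted p = 0.685).

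**Figure D3:**
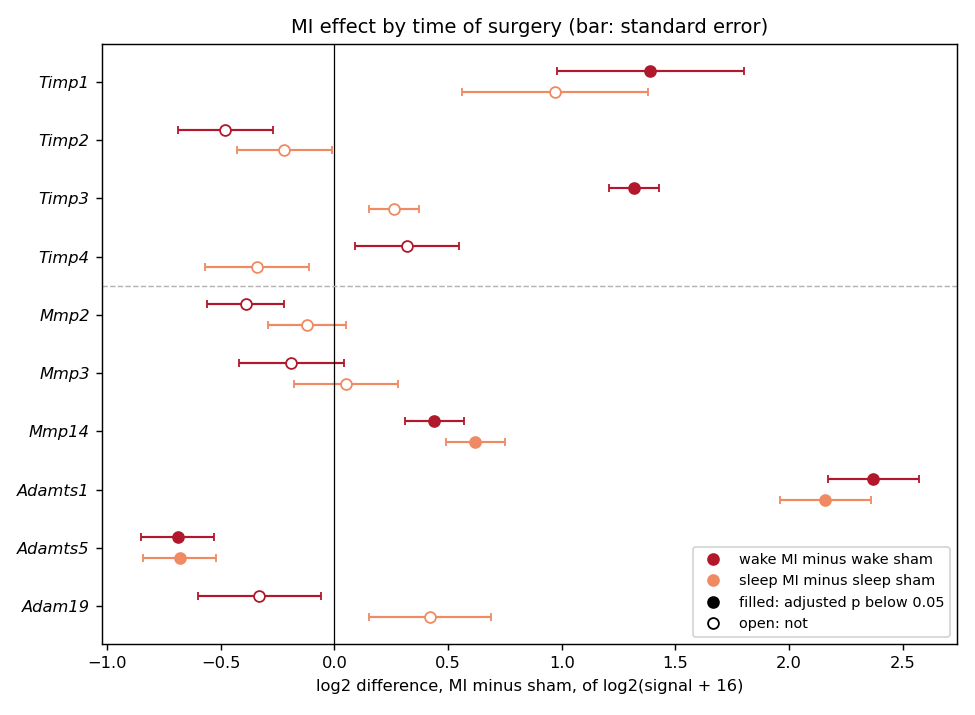
Log2 difference of MI minus sham hearts (axis, log2(signal + 16)) for the 10 genes in wake and in sleep hearts, with the standard error as bars, filled points for an adjusted p below 0.05 and a dashed line between inhibitors and proteases. Adamts1 (2.37 and 2.16) and Adamts5 (-0.69 and -0.68) were close at the 2 times, and Timp3 was at 1.32 in wake and 0.26 in sleep hearts.

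By time of surgery, 4 members rose and 1 fell in wake MI against wake sham hearts, where 18.5% of all genes were called, 7.79% as higher and 10.7% as lower. In sleep hearts 2 members rose and 1 fell, where 2.65% of all genes were called, 1.68% as higher and 0.975% as lower. The genes called in wake hearts were those called over both times. Among inhibitors, 2 of 4 were called in wake hearts and 0 of 4 in sleep hearts, where 4 of 4 had an adjusted p between 0.238 and 0.637. Among proteases 3 of 6 were called at each time, and these were Adamts1, Mmp14 and Adamts5 in both cases. The median log2 change of the inhibitors was 0.82 in wake and 0.02 in sleep hearts, and that of the proteases was -0.26 in wake and 0.24 in sleep hearts, against -0.06 and -0.05 for all genes. Groups did not overlap for 6 of the 10 members in wake hearts, against 35.1% of all genes, and for 4 in sleep hearts, against 23.5%. A call at one time only is not a difference between times: in the test of that difference 0 of the 10 members and 0% of all genes were called.

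The comparisons of wake with sleep use the same arrays as those of MI with sham. In sham hearts, 2 of the 10 members differed between wake and sleep, where 1.52% of all genes were called, 0.420% as higher and 1.10% as lower in wake. Arrays of the wake and sleep sham groups did not overlap for Timp3 and Adam19, against 20.1% of all genes. Timp3 was lower in wake sham than in sleep sham hearts by a log2 difference of -1.35 (SE 0.11, adjusted p = 2.07e-05), so that wake sham hearts had 0.393 of the signal of sleep sham hearts, and it ranked 2 by p. All 4 of its probe sets were called, at -1.35, -1.4, -1.23 and -0.8. Without wake sham replicate 3 the difference of Timp3 was -1.38 (adjusted p = 0.000188), and with the beta-actin ratio as covariate it was -1.31 (adjusted p = 0.000376). Between wake and sleep sham hearts 0 of 7 neutrophil, 0 of 10 fibroblast and 0 of 4 atrial markers were called. Their median log2 differences were -0.68, 0.22 and 2.47. With 3 arrays a group, the absence of a call does not show equal amounts. Neutrophil sums were 275 to 786.1 in wake sham hearts, against 509.2 to 2035 in sleep sham hearts. Atrial sums were 1730 to 14700, against 1680 to 4720. Of 7 monocyte and macrophage markers tested, 1 was called, Adgre1 of resident macrophages, which was higher in wake sham hearts (0.89, SE 0.18, adjusted p = 0.0219). This call held in 21 of 26 alternatives. It was lost with the beta-actin ratio as covariate and without wake sham replicate 1 or 3 or sleep sham replicate 1 or 2, with adjusted p of up to 0.109. The summed signal of all 9 monocyte and macrophage markers on the array was 3040 to 4916 in wake sham hearts, against 2792 to 3143 in sleep sham hearts. The part of these cell types in the values of Timp3 and Adam19 was not tested. The array hybridisation controls, spiked into the hybridisation mix, averaged 9.41 ± 0.03 (log2 signal, SD, n = 3) in wake sham hearts, against 9.67 ± 0.07 in sleep sham hearts. They averaged 9.81 ± 0.08 in wake MI and 9.68 ± 0.01 in sleep MI hearts, and their part in the Timp3 values was not tested. Nearest to Timp3 over the 12 arrays were Il17ra (r = 0.958), an interleukin-17 receptor chain, the metallothionein Mt2 (r = 0.958) and the kinase Map3k6 (r = 0.957), and with group means removed these were 0.698, 0.544 and 0.798.

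Adam19 was higher in wake sham than in sleep sham hearts, by 1.37 on the log2 scale (SE 0.27, adjusted p = 0.0218), or 2.58-fold, and the groups did not overlap. This call did not hold without wake sham replicate 1 (adjusted p = 0.109) or 3 (1.25, adjusted p = 0.0919), nor without sleep sham replicate 1 or 2 (0.0664 and 0.0903). A second, dimmer Adam19 probe set lay below the filter, at mean signals of 21 in wake sham and 5.48 in sleep sham hearts. It had a correlation of 0.88 with the first. Fitted over all probe sets without a filter, the second gave 0.77 (SE 0.2, adjusted p = 0.155) and the first 1.37 (SE 0.28, adjusted p = 0.0535). The genes most like Adam19 over the 12 arrays were Auts2 (r = 0.936), Ldb2 (r = 0.927) and the cyclin Ccnd2 (r = 0.92). None of the 8 other members was called, and for Timp4 (-0.59, SE 0.23, adjusted p = 0.274) and Mmp3 (0.61, SE 0.23, adjusted p = 0.25) the difference exceeded 2 standard errors. Timp4 was called without wake sham replicate 2 (-0.88, adjusted p = 0.0392). Its second, dimmer probe set gave -0.33 on all arrays (SE 0.24, adjusted p = 0.607).

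In MI hearts 0 of the 10 members were called between wake and sleep, where 0.0741% of all genes were. Timp3 was the only member whose MI arrays did not overlap between the times, at 1401 to 1497 in wake and 1593 to 1856 in sleep hearts (log2 difference -0.29, SE 0.11, adjusted p = 0.679), and such arrays were found for 10.9% of all genes. For Adamts1 the difference was -0.05 (SE 0.2, adjusted p = 0.985) and for Adamts5 it was -0.03 (SE 0.16, adjusted p = 0.986).

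**Figure D4:**
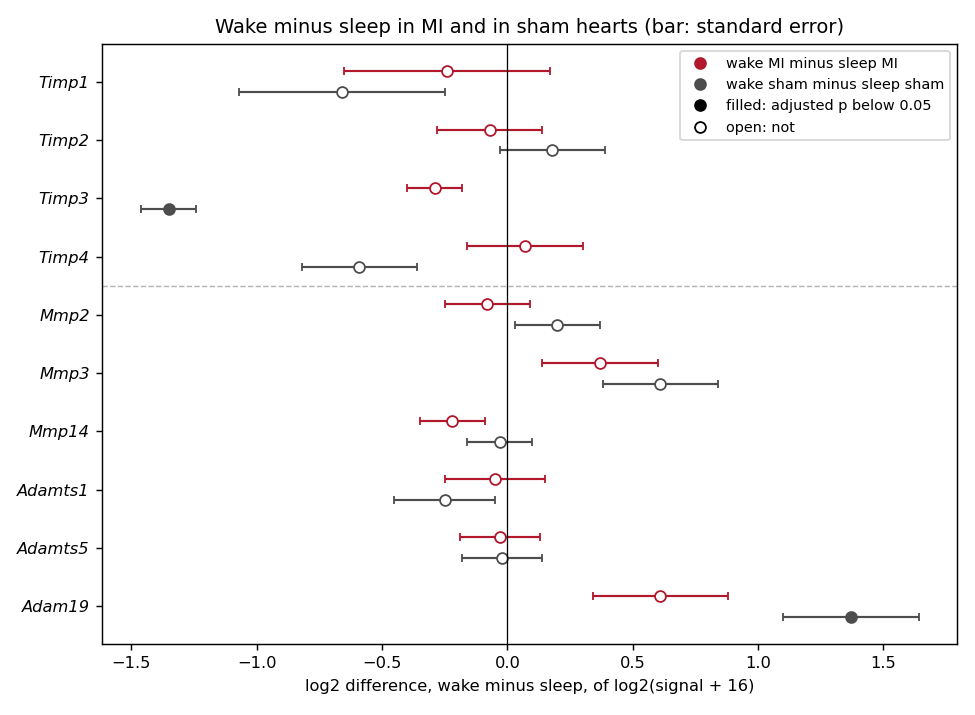
Log2 difference of wake minus sleep hearts (axis, log2(signal + 16)) for the 10 genes in MI and in sham hearts, with the standard error as bars, filled points for an adjusted p below 0.05 and a dashed line between inhibitors and proteases. Timp3 at -1.35 and Adam19 at 1.37, both in sham hearts, are the 2 filled points.

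Other genes of matrix proteolysis were read from lists chosen by function. Of 13 other Mmp genes on the array 5 passed the filter, and over both times Mmp8, the neutrophil collagenase, rose by 1.01 (SE 0.21, adjusted p = 0.00422) while Mmp11 fell (log2 change -0.37, SE 0.12, adjusted p = 0.0348). Mmp9, the other gelatinase, had a log2 change of 0.26 (SE 0.09, adjusted p = 0.0613). Of 6 other Adamts and Adamts-like genes tested, Adamts4, a proteoglycan-cutting relative of Adamts1, rose by 1.29 (SE 0.15, adjusted p = 9.23e-05) and Adamts7 fell (log2 change -0.58, SE 0.11, adjusted p = 0.00256). Of 5 other Adam genes tested, Adam8, found on leukocytes, rose by 0.92 (SE 0.16, adjusted p = 0.0016), and 4 were not called. The neutrophil markers given beside Timp1 rose in the same comparison as Mmp8 and Adam8, and their part was not tested. The call for Mmp11 held in 17 of 24 alternatives, and those for Mmp8, Adamts4, Adamts7 and Adam8 in all 24, for the comparison over both times. Adamts4 was called at each time, at 1.5 in wake (adjusted p = 0.000569) and 1.07 in sleep hearts (adjusted p = 0.0184). Its sleep call did not hold without sleep MI replicate 1 or 3 or sleep sham replicate 1 or 3, with adjusted p of 0.0902, 0.0725, 0.0577 and 0.0828.

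Of 13 tested regulators of matrix proteases, 3 rose and 1 fell over both times, where 8.49% of all genes were called as higher and 13.6% as lower. Plaur, the receptor that holds urokinase at the cell surface, rose by 1.46 (SE 0.1, adjusted p = 8.61e-07). The heparan sulphate proteoglycan Sdc4 rose by 1.43 (SE 0.15, adjusted p = 3.29e-05) and Plat, tissue plasminogen activator, by 0.97 (SE 0.1, adjusted p = 4.06e-05). Reck, a membrane-anchored inhibitor of Mmps, fell (log2 change -0.55, SE 0.17, adjusted p = 0.032), a call that held in 16 of 25 alternatives. Plaur, Sdc4 and Plat were each called at both times, Plaur at 1.68 in wake (adjusted p = 1.86e-05) and 1.23 in sleep hearts (adjusted p = 0.000309). The sleep call of Sdc4 did not hold without sleep MI replicate 3 (adjusted p = 0.0667). The median of the 13 over both times was 0.04, against -0.06 for all genes.

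Of 35 tested substrates in matrix and growth factors, 5 rose, 4 fell and 26 were not called, with a median of 0.01. These 9 calls are a share near the 22.1% of all genes called. Hbegf rose by 2.6 (SE 0.18, adjusted p = 1.16e-06), and the basement membrane collagens Col4a1 and Col4a2 by 0.88 (SE 0.1, adjusted p = 4.66e-05) and 0.55 (SE 0.11, adjusted p = 0.00281). Fbln1, a matrix glycoprotein and cofactor of Adamts1, fell (log2 change -0.63, SE 0.08, adjusted p = 0.000164). Versican (Vcan), named after its values were seen because Adamts1, Adamts4 and Adamts5 cut it, rose by 0.85 (SE 0.18, adjusted p = 0.0044). By time, 5 of the 35 rose and 4 fell in wake hearts, where 18.5% of all genes were called. In sleep hearts, where 2.65% were, 2 rose and 0 fell, these being Hbegf (2.81, adjusted p = 4.16e-05) and Col4a1 (0.68, adjusted p = 0.018). The Col4a1 call did not hold with probe sets averaged, without sleep MI replicate 1 or 3, or without sleep sham replicate 1 or 3, with adjusted p of up to 0.0962.

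**Figure D5:**
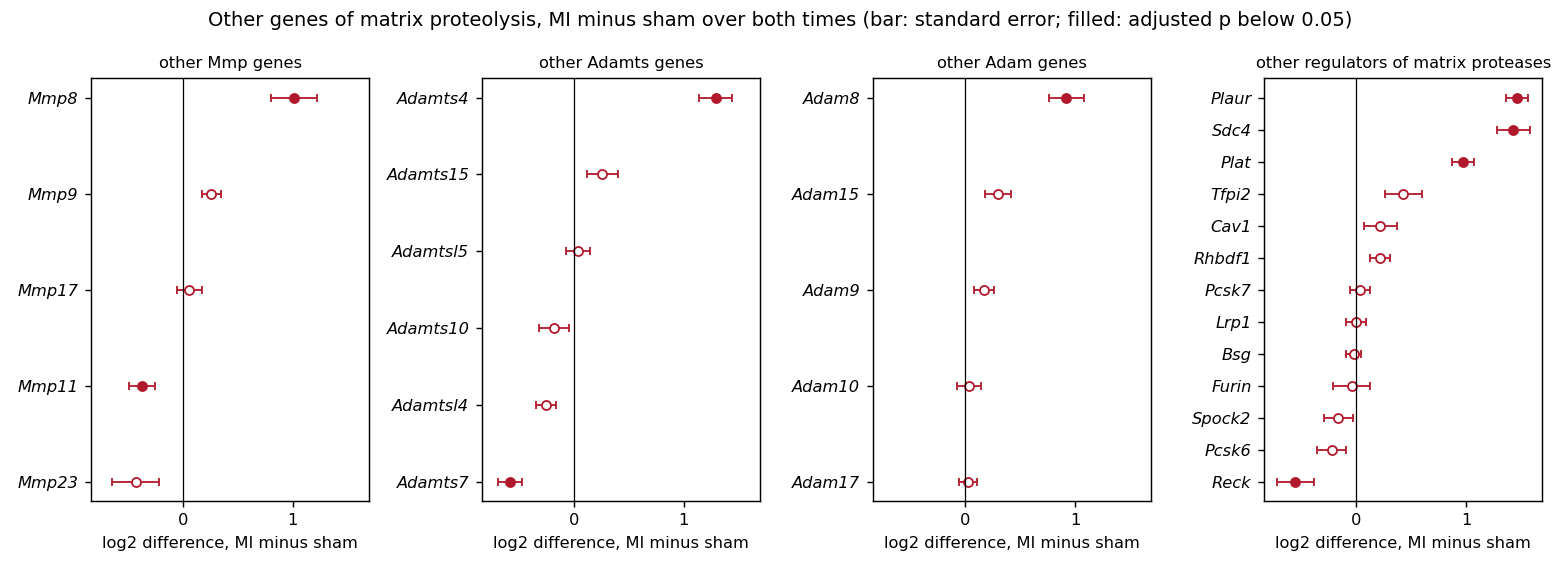
Log2 difference of MI minus sham hearts over both times (axis, log2(signal + 16)) for the tested genes of 4 lists, with the standard error as bars and filled points for an adjusted p below 0.05. Adamts4 (1.29), Plaur (1.46) and Sdc4 (1.43) lie farthest to the right, and Adamts7 (-0.58) and Reck (-0.55) farthest to the left.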

How the data were processed

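Heart RNA of 12 mice, 3 per group, was hybridised as biotin-labelled cRNA, 1 array per mouse. Each deposited intensity, linear in scale, summarises 1 probe set and was made by the authors with MAS5, per the submitters' processing notes. Version, settings and detection calls of MAS5 were not used here. Trimmed means (2% at each end) were 150 on all 12 arrays, so no further scaling was applied. Batches were not analysed here.

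Of 22690 probe sets, 64 were controls and 20380 had 1 gene symbol in the platform annotation. The brightest probe set stood for each gene. Testing covered the 8101 genes at or above the 40th percentile of mean log2(signal + 16), a signal of 16.8. Fold changes are on that scale, which understates changes of low signals. All 12 arrays entered 1 linear model of the 4 group means (limma 3.58.1, statmod 1.5.0 and R 4.3.3), with variances moderated along an intensity trend, two-sided tests and Benjamini-Hochberg adjustment within each of 6 comparisons. With 3 arrays a group, 0.1 is the smallest two-sided p of an exact permutation test, and limma alone was used. The number of arrays limits the precision.

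All members were named, called or not. Of the lists only some called genes were named, and Mmp9 was named though not called. Called genes not named above include Adamts10 and Lum in wake hearts. They also include the endothelial markers Egfl7, Cdh5, Vwf and Kdr over both times. For each called member the 3 tested genes with the highest Pearson r over the 12 arrays were named. Members and lists were chosen with earlier results of these data known. On simulated arrays with the spreads of these genes, the wake comparison recovered 90% of 100 genes shifted by log2 1. It recovered 99% of 100 shifted by log2 2, gave 0 wrong signs and called 8 unshifted genes. Alternatives were other added constants (1 and 64), the 60th percentile as filter or none, quantile normalization, median centring, probe sets averaged per gene or taken alone, variances without a trend or robust, arrayWeights, a fit of only the groups compared, a replicate block, the beta-actin ratio as covariate, and each array left out. Figures were drawn with matplotlib 3.10.9 in Python 3.11.15 (pandas 2.3.3, numpy 2.4.6).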

Additional observations from a re-analysis of the deposited data

How the results depend on the processing

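Over 14 settings, 789 of 814 member values kept their direction and call, 15 lost and 10 gained a call and 0 reversed. With each array left out 689 of 720 did, 25 lost and 6 gained one. Direction was read only for values called or beyond 1 standard error of 0, and 17 of the 21 others changed sign somewhere. Of 15 calls 8 held throughout: Adamts1 in all 3 MI comparisons, Timp3 in wake, over both times and in sham hearts, and Mmp14 and Adamts5 over both times. With probe sets taken alone, only the brightest of a gene was counted here. The second probe sets of Mmp14 and Adamts5 were not called over both times (adjusted p = 0.96 and 0.118). The cause of the losses was not tested.

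The count of called genes over both times was 672 with the actin covariate. In wake hearts it was 274 with that covariate and 845 to 1511 with 1 array left out. In sleep hearts it was 140 without a level filter, 416 with array weights and 62 to 289 with 1 array left out. Between wake and sleep MI hearts it was 2 without a filter, 3 with mean probe sets, the compared groups alone or the replicate block, and 0 to 7 with 1 array left out. Between sham hearts it was 75 without a filter, 70 with mean probe sets, 371 with array weights, 69 with the compared groups alone, 41 with the covariate and 30 to 226 with 1 array left out. For the difference of the MI effect it was 1 at the 60th percentile, with median centring or robust variances, 2 with quantile normalization, 39 with array weights, 3 with the block and 0 to 35 with 1 array left out.

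Members called in wake hearts numbered 3 without a filter, 8 with array weights, 2 with the covariate and 3 to 7 with 1 array left out. With 1 array left out they were 5 to 6 over both times, 1 to 3 in sleep hearts and 1 to 3 between sham hearts, where the 60th percentile left 1. For the difference, 1 member, Timp3, was called at the 60th percentile, with quantile normalization, median centring, robust variances, array weights or the block, and 0 to 1 with 1 array left out. No member was called between wake and sleep MI hearts in any of these.

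Same-numbered arrays of 2 groups had deviations from group means that correlated at -0.175 to 0.251 (18 pairs, 5 above 0.1), so the numbers were not taken as pairs. With the replicate block 1684 genes were called over both times, 1415 in wake, 172 in sleep, 3 between MI and 99 between sham hearts and 3 for the difference. The block ended the sleep call of Adamts5 (-0.68, adjusted p = 0.0579), gave one for the difference of Timp3 (1.06, adjusted p = 0.0321) and changed no other member's call.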
